A study of Mus musculus with 6 samples.

Results

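The cell surface and basement membrane proteoglycans described here are 10 genes chosen by symbol, *Hspg2*, *Agrn*, *Sdc1*, *Sdc2*, *Sdc3*, *Sdc4*, *Gpc1*, *Gpc3*, *Gpc4* and *Gpc6*. They are 10 of the 24982 genes listed for each library, and each of them was above 0 in at least 1 library. RNA-seq had been carried out on 2 keratinocyte lines from neonatal skin of C57BL/6 mice, with 3 libraries of each and no treatment. The KSFM-Ca2+ cells were derived and kept in the low calcium medium KSFM-Ca2+, and the DKSFM cells descend from them after adaptation to the medium DKSFM, so that medium and history of the line cannot be told apart. The labels do not say whether the 3 libraries of a line came from separate cultures, and p-values therefore measure only the spread between libraries, which may be technical. The comparison asks how the transcripts of these proteoglycans differ between the 2 lines.

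Proteoglycans are core proteins that carry long sulfated sugar chains, in this family mostly heparan sulfate. Perlecan and agrin are laid down in basement membranes, such as the one under the epidermis, syndecans cross the plasma membrane, and glypicans are held on the cell surface by a lipid anchor. Through their chains they bind growth factors and matrix proteins, and syndecan-1 is known as the main syndecan of epidermal keratinocytes.

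Values are the mean read coverage per base of a gene, a scale per length, normalized between libraries. Levels of different genes are set side by side on this scale, although the transcripts and reads that entered the coverage are not given in the sources used here. The listed coverage summed over all genes was 1601676, 1238411 and 1057750 in KSFM-Ca2+ replicates 1 to 3, and 1174348, 1239438 and 1170675 in DKSFM replicates 1 to 3. Listed values have 1 decimal, so that 0.1 is the smallest step. A gene passed the test at an adjusted p under 0.01 (limma on log2 of normalized coverage + 0.1, 12409 genes tested), and it was called if it also differed at least 2-fold. Fold changes as ratios are of mean normalized coverage, and log2 fold changes are on the scale with 0.1 added, which understates the change of low genes.

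The labelled cell type was checked first. All 8 keratinocyte markers were above the smallest step, and their summed normalized coverage was 19579, 19989 and 19682 in the KSFM-Ca2+ libraries and 47979, 44379 and 48579.7 in DKSFM. *Krt14*, a keratin of basal keratinocytes, was the most abundant of them. The higher sum came from *Krt14*, *Krt5* and *Perp*, while *Itgb4* fell by 40.4% (limma adjusted p = 4.16e-07) and *Cdh1* by 8.92% (limma adjusted p = 0.00299). *Trp63* rose by 9.23% (limma adjusted p = 0.0083) and *Itga6* by 9.91% (limma adjusted p = 0.00477), and *Sfn*, 9.85% higher in the mean, did not pass (limma adjusted p = 0.0314). Keratinocyte markers were thus high in both lines and did not all differ in the same direction. Markers of other skin cells were low beside these sums. Of 8 fibroblast markers, 6 (*Col1a1*, *Col1a2*, *Col3a1*, *Dcn*, *Lum* and *Thy1*) were listed at 0 in all 6 libraries, and the list summed to 8.77, 8.23 and 8.38 in KSFM-Ca2+ and to 2.43, 2.10 and 2.23 in DKSFM. The most abundant of that list over the 6 libraries was the transcription factor *Twist2*, at 7.35 ± 0.27 (SD, n = 3) in KSFM-Ca2+ and listed at 0.1, 0 and 0 in DKSFM. The other detected gene, the receptor *Pdgfra*, went the other way, from 1.11 ± 0.205 to 2.22 ± 0.117 (SD, n = 3, limma adjusted p = 7.30e-04). The summed list was thus lower in every DKSFM library through *Twist2* alone. Of 5 endothelial markers, *Cdh5* and *Emcn* were listed at 0 throughout, and the sums were 2.82, 3.17 and 3.31 in KSFM-Ca2+ and 8.26, 8.28 and 7.42 in DKSFM, mostly from *Pecam1*. Of 5 leukocyte markers, *Ptprc*, *Cd3e*, *Csf1r* and *Itgam* never exceeded 0.1, and the sums of 10.8, 11.1 and 12.5 against 13.7, 18.9 and 20.7 came almost entirely from *Cd68*, a lysosomal membrane protein. Both lists were higher in every DKSFM library. *Pecam1*, which codes for the endothelial adhesion molecule CD31, was itself called higher, at 2.78 ± 0.255 against 7.57 ± 0.591 (SD, n = 3, limma adjusted p = 3.81e-06). The 5 melanocyte markers summed to 0.534, 0.893 and 0.708 in KSFM-Ca2+ and 0.318, 0.599 and 0.212 in DKSFM, with *Pmel* the most abundant and *Dct* and *Tyr* listed at 0. The 5 muscle markers summed to 0.839, 0.595 and 1.18 against 0.635, 0.2 and 0.424, with *Myod1*, *Myh11* and *Myog* at or under 0.1. *Des* was the most abundant in KSFM-Ca2+, at 0.610, 0.496 and 0.945 against 0.106, 0 and 0 with no overlap, and *Acta2* in DKSFM, at 0.280 ± 0.165 (SD, n = 3). The libraries of the 2 lines overlapped in the sums of the melanocyte and muscle lists. The part of these markers in the results on proteoglycans was not tested. Fewer cells of a type and less RNA per cell cannot be told apart in such bulk libraries.

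The core proteins differed widely in level within each line. In KSFM-Ca2+ the order of mean normalized coverage was *Sdc1* (1128), *Sdc4* (326), *Agrn* (44.2), *Sdc2* (35.5), *Gpc1* (14.5), *Sdc3* (9.54), *Hspg2* (9.42), *Gpc4* (9.24), *Gpc3* (0.163) and *Gpc6* (listed at 0). Of neighbours in that order, *Sdc3* and *Hspg2* overlapped between libraries, as did *Hspg2* and *Gpc4*, and the others did not. In DKSFM the order was *Sdc1* (960.5), *Sdc4* (283), *Sdc2* (47.6), *Gpc1* (45.2), *Agrn* (43.2), *Gpc4* (32.8), *Sdc3* (7.55), *Hspg2* (5.51), *Gpc6* (5.37) and *Gpc3* (1.62). Here *Sdc2* overlapped with *Gpc1*, *Gpc1* with *Agrn*, and *Hspg2* with *Gpc6*. The syndecans *Sdc1* and *Sdc4* headed the order in both lines, and 98.7% of the tested genes lay below *Sdc1* in KSFM-Ca2+ and 98.5% in DKSFM. *Gpc1* moved from above 38.3% of the tested genes to above 63.8%, and *Gpc4* from above 30.6% to above 56.1%.

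**Figure D1:**
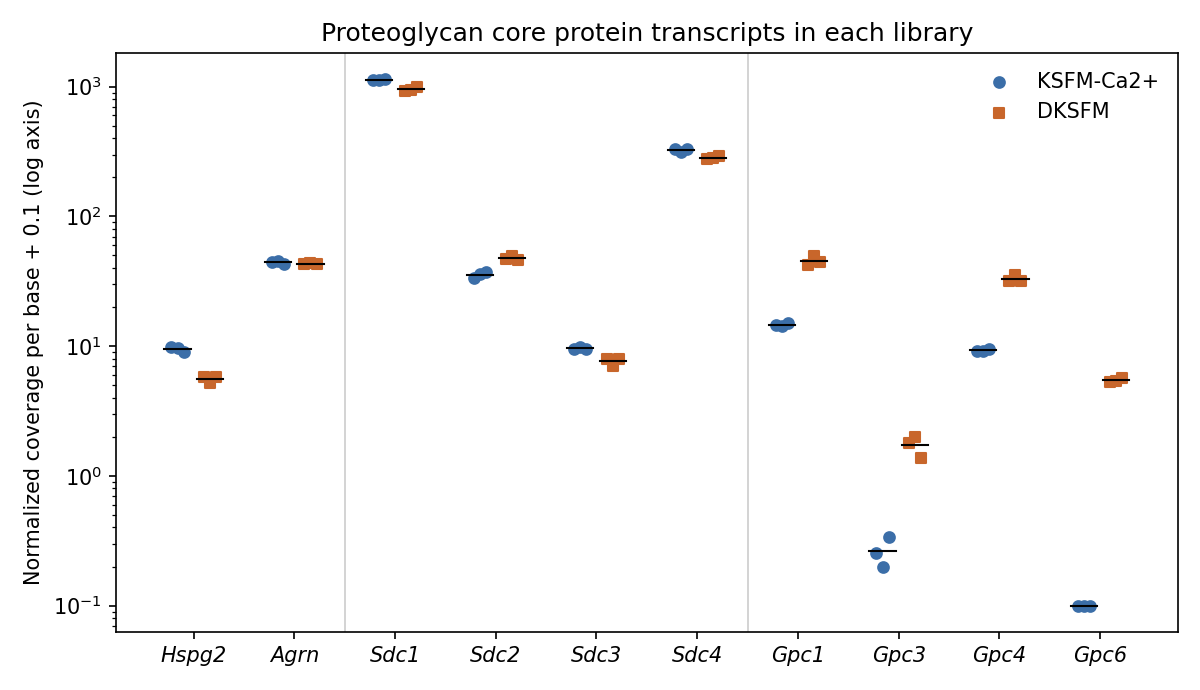
Normalized coverage per base + 0.1 on a log axis for the 10 proteoglycan genes, with 1 point per library (circles, KSFM-Ca2+; squares, DKSFM; 3 libraries each) and a line at the mean; grey lines part basement membrane proteoglycans, syndecans and glypicans. The 4 glypicans sit higher in all DKSFM libraries, *Gpc6* lies on the floor of 0.1 in KSFM-Ca2+ because it is listed at 0 there, and *Agrn* is the only gene whose lines overlap.

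Of the 10 members, 4 were called higher in DKSFM and 0 lower, where 13.1% of all tested genes were called higher and 10.6% lower. Without the fold minimum, 5 members passed the test as higher and 4 as lower, beside 35.3% and 37.3% of all tested genes. The libraries of the 2 lines did not overlap for 9 of the 10 members, and this was so for 83.3% of all tested genes, so that a lack of overlap was the rule across the transcriptome. All 10 members passed the filter on low values, but *Gpc3* and *Gpc6* only through the DKSFM libraries, where they were high, so that they had to differ. The median log2 fold change was 0.20 over the 10 members and -0.12 over the 8 besides these, beside -0.01 over all tested genes and -0.02 over those that reached the filter's minimum in both lines, so that its sign rests on *Gpc3* and *Gpc6*. The 4 called members were the 4 glypicans, and the syndecans and basement membrane proteoglycans stayed under 2-fold.

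Of the basement membrane proteoglycans, *Hspg2* codes for perlecan, a large heparan sulfate proteoglycan that binds laminin networks and growth factors. Its normalized coverage was 9.76, 9.52 and 8.97 in the KSFM-Ca2+ libraries and 5.71, 5.09 and 5.73 in DKSFM. Every DKSFM library was below every KSFM-Ca2+ library. *Hspg2* fell by 41.5%, from 9.42 ± 0.402 to 5.51 ± 0.364 (SD, n = 3 libraries each), with a log2 fold change of -0.76 (95% interval -0.95 to -0.58, limma adjusted p = 3.11e-05), which is short of 2-fold.

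*Agrn* codes for agrin, the other proteoglycan of this group, which binds laminins and dystroglycan. It was at 44.7, 45.3 and 42.5 in KSFM-Ca2+ and at 43.1, 43.8 and 42.8 in DKSFM. The lines overlapped, and the difference did not pass the test (log2 fold change -0.03, 95% interval -0.12 to 0.06, limma adjusted p = 0.49). Under the other settings the log2 value lay between -0.05 and 0.03, and it was above 0 only in the 4 libraries whose files are marked as combined.

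Among the syndecans, *Sdc1* codes for syndecan-1, a receptor that binds matrix proteins and growth factors through its chains. It was at 1124, 1121 and 1139.6 in KSFM-Ca2+ and at 933, 948 and 1000.6 in DKSFM. The DKSFM libraries were all lower, with a wider spread among them than among the KSFM-Ca2+ libraries. *Sdc1* fell by 14.9% (log2 fold change -0.23, 95% interval -0.31 to -0.16, limma adjusted p = 1.73e-04). *Sdc4*, for syndecan-4, a component of focal adhesions, was at 332, 311 and 333 in KSFM-Ca2+ and at 278, 282 and 290.1 in DKSFM. It too was lower in all DKSFM libraries and fell by 13.0% (log2 fold change -0.20, 95% interval -0.28 to -0.12, limma adjusted p = 7.97e-04).

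*Sdc2* went the other way. Syndecan-2, its product, is best known from mesenchymal and neural cells. Its coverage was 33.6, 35.7 and 37.2 in KSFM-Ca2+ and 46.5, 49.8 and 46.4 in DKSFM. All DKSFM libraries were higher, by 34.0% in the mean (log2 fold change 0.42, 95% interval 0.30 to 0.54, limma adjusted p = 8.27e-05). *Sdc3*, for syndecan-3, a syndecan of the nervous system, was low at 9.45, 9.72 and 9.45 in KSFM-Ca2+ and at 7.83, 6.99 and 7.85 in DKSFM. It fell by 20.8% (log2 fold change -0.33, 95% interval -0.50 to -0.17, limma adjusted p = 0.00251). This call by p ended without KSFM-Ca2+ replicate 2 (limma adjusted p = 0.0124) and in the 4 libraries whose files are marked as combined, KSFM-Ca2+ replicate 3 and the DKSFM libraries (limma adjusted p = 0.0408), while the log2 fold change lay between -0.44 and -0.28 under all settings tried.

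The 4 glypican members were called higher, *Gpc3* and *Gpc6* with a direction fixed by the filter. Of the glypicans outside the members, *Gpc5* was listed at 0 in every library, and *Gpc2*, at 0 in KSFM-Ca2+ and 0.423, 0.599 and 0.212 in DKSFM, was not tested. *Gpc1* codes for glypican-1, a glypican found in many epithelia. It was at 14.3, 14.2 and 14.9 in KSFM-Ca2+ and at 42.1, 49.3 and 44.3 in DKSFM. The lowest DKSFM library was far above the highest KSFM-Ca2+ library. The ratio of the means was 3.13, from 14.5 ± 0.366 to 45.2 ± 3.68 (SD, n = 3 libraries each), with a log2 fold change of 1.64 (95% interval 1.49 to 1.78, limma adjusted p = 9.49e-08).

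*Gpc4* codes for glypican-4, a glypican known to modulate Wnt and FGF signalling. Its libraries were at 9.15, 9.13 and 9.45 in KSFM-Ca2+ and at 31.4, 35.1 and 31.8 in DKSFM. The lines were as clearly separate as for *Gpc1*, and replicate 2 was the highest DKSFM library for both genes. The ratio was 3.55, from 9.24 ± 0.179 to 32.8 ± 2.03 (SD, n = 3 libraries each), with a log2 fold change of 1.81 (95% interval 1.68 to 1.95, limma adjusted p = 3.75e-08).

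*Gpc6* codes for glypican-6, a close relative of glypican-4. It was listed at 0 in all KSFM-Ca2+ libraries, and its normalized coverage was 5.19, 5.29 and 5.62 in DKSFM. The gene was thus seen in 1 line and listed at 0 in the other, so no fold is given (limma adjusted p = 3.36e-08). *Gpc6* passed the filter only through the DKSFM libraries, so that it had to differ. A step of 0.1 is worth about 2.85 reads of 85 bases over its median annotated transcript, and less than a step cannot be seen in these files.

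*Gpc3* codes for glypican-3, which is abundant in fetal tissues and inhibits hedgehog signalling. It was listed at 0.2, 0.1 and 0.2 in the KSFM-Ca2+ libraries, 1 or 2 steps above 0, and at 1.6, 1.9 and 1.2 in DKSFM. The lines did not overlap, but the KSFM-Ca2+ values lie at the resolution of the files. *Gpc3* too passed the filter only through the DKSFM libraries and had to differ. The log2 fold change was 2.73 (95% interval 2.10 to 3.35, limma adjusted p = 2.54e-05), and it ranged from 1.17 to 2.94 under other settings, the lowest with a pseudocount of 1.

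**Figure D2:**
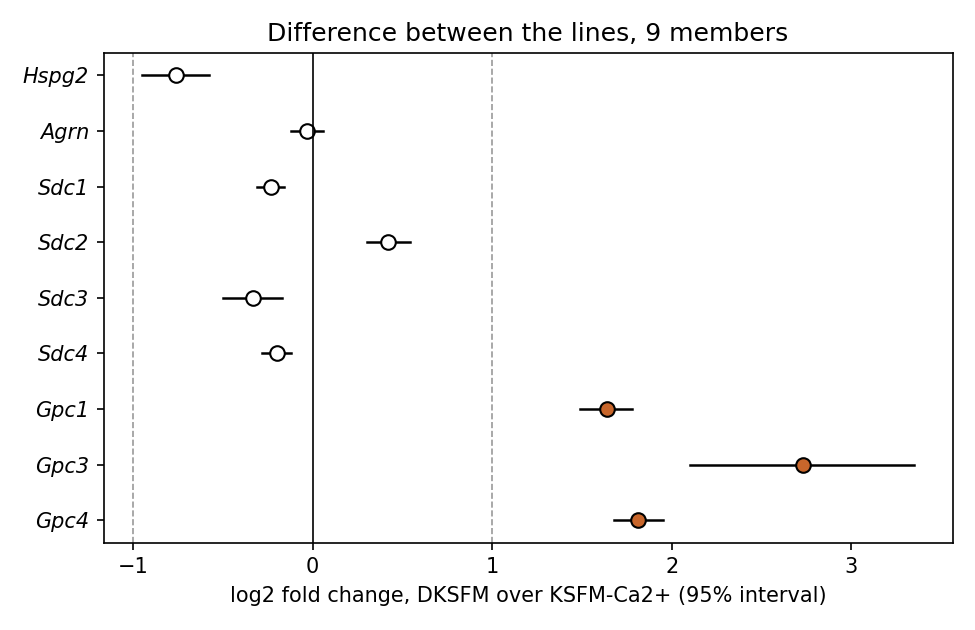
The log2 fold change of DKSFM over KSFM-Ca2+ (x axis, limma on log2 of normalized coverage + 0.1) with its 95% interval for 9 proteoglycan genes, filled where called and open where not; dashed lines mark 2-fold, and *Gpc6* is left out because it is listed at 0 in KSFM-Ca2+. *Gpc1*, *Gpc3* and *Gpc4* lie beyond the dashed line at 1, and the interval of *Agrn* spans 0.

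*Gpc4* and *Gpc3* are neighbours on the X chromosome (GRCm38.p6, chrX:52051007-52164923 and chrX:52272426-52613974), with 107502 bases between them, while *Gpc1* (chr1:92831645-92860211) and *Gpc6* (chr14:116924920-117979529) lie elsewhere. The other tested genes of the same 20 Mb window differed little from the rest of the genome around *Gpc3* and *Gpc4*, where their median log2 fold change minus that of all tested genes was 0.06 (37 genes). Around *Gpc1* this median was -0.35 (92 genes) and around *Gpc6* it was -0.54 (24 genes), so that these glypicans were higher in DKSFM inside windows that were lower. Around the other 6 members it was between 0 and 0.12. *Gpc1* shares 372 bases with *Ankmy1*, which was at 0.447 ± 0.192 in KSFM-Ca2+ and 0.555 ± 0.0713 in DKSFM (SD, n = 3), far below *Gpc1*. Of the noncoding genes whose span overlaps a member, the 6 that the files list were at 0 in all libraries. The libraries were directional and the authors aligned them with a first strand setting, but whether coverage was then taken by strand is not stated, so that the part of overlapping genes was not tested.

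RefSeq promoter entries (GRCm38.p6) were found for 7 of the 10 members, and not for *Sdc2*, *Gpc1* and *Gpc6*. The 250 bases before the start of the gene are shown for the neighbours *Gpc3* and *Gpc4*, both called higher in DKSFM, and for *Sdc1*, the most abundant member. Capitals mark the GC box, searched as GGGCGG and as CCGCCC for the other strand. They are chrX:52613975-52614224 on the minus strand, chrX:52164924-52165173 on the minus strand and chr12:8771146-8771395 on the plus strand.
Gpc3: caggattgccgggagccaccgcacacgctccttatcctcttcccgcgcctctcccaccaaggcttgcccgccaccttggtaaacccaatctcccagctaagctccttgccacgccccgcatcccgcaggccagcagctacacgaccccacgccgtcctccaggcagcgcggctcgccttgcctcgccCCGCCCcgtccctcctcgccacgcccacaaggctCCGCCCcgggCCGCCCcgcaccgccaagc
Gpc4: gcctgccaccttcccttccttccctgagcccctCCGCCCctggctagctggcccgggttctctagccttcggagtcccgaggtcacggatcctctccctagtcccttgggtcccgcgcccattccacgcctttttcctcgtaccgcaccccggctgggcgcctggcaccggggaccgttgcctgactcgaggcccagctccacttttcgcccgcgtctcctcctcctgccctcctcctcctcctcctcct
Sdc1: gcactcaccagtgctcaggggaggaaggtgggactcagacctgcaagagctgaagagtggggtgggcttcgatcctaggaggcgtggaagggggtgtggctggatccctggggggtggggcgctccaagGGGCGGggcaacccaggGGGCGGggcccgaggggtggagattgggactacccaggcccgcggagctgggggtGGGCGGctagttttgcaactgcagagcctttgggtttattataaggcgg
The GC box occurred 3 times before *Gpc3*, 1 time before *Gpc4* and 3 times before *Sdc1*. It was found at least 1 time in all 7 members with an entry and in 32.7% of 32851 promoter entries over the same length. Each member was counted by the entry nearest the start of its gene, while the share is over all entries. The sequence TATAAA, searched on both strands, was in 0 of the 7 and in 12.4% of all entries. The GC content was 71.6% for *Gpc3*, 68.4% for *Gpc4* and 66.0% for *Sdc1*. Over the 7 members it lay between 66.0% and 83.6%, and that of all entries is not given here. These matches are a description of the sequence and were not tested for any part in expression.

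Summed over a family, the glypicans moved most as a ratio, while the syndecans, at a far higher level, moved most in coverage. Their summed normalized coverage was 23.6, 23.4 and 24.6 in the KSFM-Ca2+ libraries and 80.4, 91.6 and 83.0 in the DKSFM libraries, 3.56 times as much in the mean. The syndecans summed to 1499.98, 1478 and 1519 in KSFM-Ca2+ and to 1265, 1287 and 1345 in DKSFM. *Agrn* and *Hspg2* together summed to 54.4, 54.9 and 51.5 against 48.8, 48.9 and 48.6. The lines did not overlap in any of the 3 sums, the syndecan and basement membrane sums being lower in DKSFM.

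Within the families some shares moved and others overlapped between the lines. *Agrn* made up 82.4% ± 0.309 of the basement membrane sum in KSFM-Ca2+ and 88.7% ± 0.777 in DKSFM (SD, n = 3), the rest being *Hspg2*. Its share was higher in every DKSFM library. *Sdc1* made up 75.3% ± 0.504 of the syndecan coverage in KSFM-Ca2+ and 73.9% ± 0.403 in DKSFM (SD, n = 3), and *Sdc4* 21.7% ± 0.575 and 21.8% ± 0.218, with overlap between the lines. *Sdc2* went from 2.37% ± 0.111 to 3.67% ± 0.208. The order of the 4 syndecans was the same in both lines. Among the glypicans, *Gpc4* held 38.7% ± 0.261 and 38.6% ± 0.433 of the coverage, again with overlap, while *Gpc1* went from 60.6% ± 0.0356 to 53.2% ± 0.742. *Gpc6* accounted for 6.33% ± 0.508 in DKSFM, and *Gpc3* for 1.90% ± 0.321. *Gpc1* and *Gpc4* thus kept most of the glypican coverage in both lines. Of the coverage of the 4 syndecans and 4 glypicans together, glypicans made up 1.55%, 1.56% and 1.59% in KSFM-Ca2+ and 5.98%, 6.65% and 5.81% in DKSFM. Even in DKSFM the syndecans held most of this sum.

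**Figure D3:**
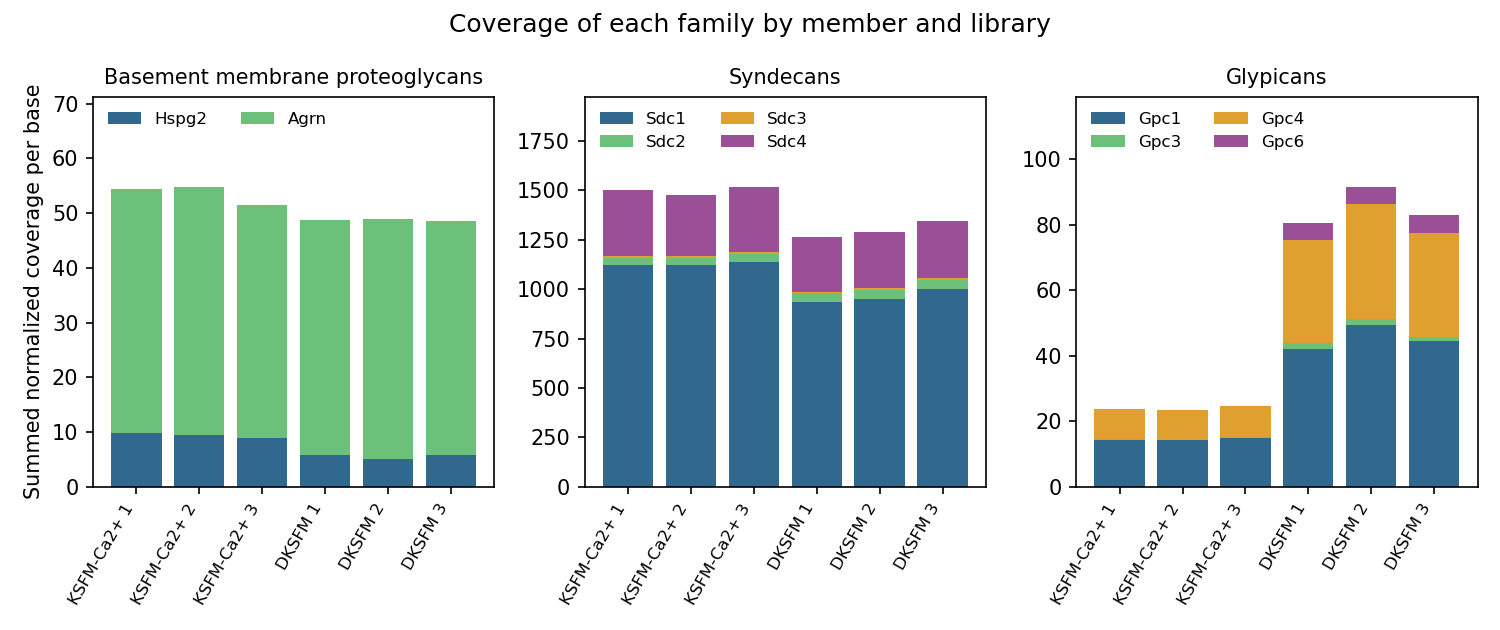
Summed normalized coverage per base (y axis, from 0, with a scale of its own in each panel) in each of the 6 libraries for basement membrane proteoglycans, syndecans and glypicans, with the bars split by member. The glypican bars reach 23.4 to 24.6 in KSFM-Ca2+ and 80.4 to 91.6 in DKSFM, and *Sdc1* fills most of every syndecan bar.

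Beyond the core proteins, 128 genes in 12 lists of the proteoglycan pathway were followed. Of these, 81 were tested, 40 passed as higher in DKSFM and 31 as lower, and 18 were called higher and 12 lower. Over all tested genes, 35.3% passed as higher and 37.3% as lower, and 13.1% were called higher and 10.6% lower, and the counts of each list below stand beside these shares. To pass the test was thus common across the transcriptome. Of the tested genes, 11 passed the filter only through the DKSFM libraries and 1 only through the KSFM-Ca2+ libraries. All of the 11 but *Gpld1* were called higher, and the 1, *Gusb*, was called lower. Of the 69 tested pathway genes besides these 12, fewer were called higher than lower. Calls were not counted over the 11605 tested genes that reached the filter's minimum in both lines. No matched share thus stands beside that direction. The median log2 fold change of the 81 genes was 0.25, beside -0.01 over all tested genes, and without those 12 genes it was 0.07, beside -0.02 over all genes that reached the filter's minimum in both lines.

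The sugar chain starts with a linkage region on the core protein, begun by xylosyltransferases. *Xylt1* was listed at 0 in 5 libraries and 0.1 in KSFM-Ca2+ replicate 3, and *Xylt2* was at 8.92, 7.84 and 6.85 in KSFM-Ca2+ and 8.78, 9.28 and 8.38 in DKSFM. *Xylt2* was therefore the xylosyltransferase seen in both lines, with overlapping values (log2 fold change 0.17, 95% interval -0.07 to 0.41, limma adjusted p = 0.158). Of 7 linkage genes 6 were tested, 1 passed as higher and 4 as lower, and 2 were called, both lower. *B3gat3*, the glucuronyltransferase that completes the linkage region, was at 47.4, 47.9 and 49.5 in KSFM-Ca2+ and at 23.6, 22.5 and 22.5 in DKSFM, 2.11-fold lower (limma adjusted p = 9.16e-08). *Pxylp1*, which removes the phosphate from the linkage xylose, was at 21.9, 18.2 and 16.1 against 5.93, 5.99 and 7.74, 2.85-fold lower (limma adjusted p = 1.64e-05). Both were separate between the lines in every library.

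Heparan sulfate chains are then built by the exostosin polymerases. *Ext1* was at 24.2, 26.5 and 23.9 in KSFM-Ca2+ and 32.5, 28.5 and 32.4 in DKSFM, a log2 fold change of 0.33 (limma adjusted p = 0.0021). *Ext2* was at 61.8, 60.4 and 58.8 against 61.4, 64.8 and 67.0 and did not pass (limma adjusted p = 0.0718). The polymerase pair was thus well expressed in both lines. Of the 5 genes of this list, all tested, 2 passed as higher and 2 as lower, and 1 was called, the exostosin-like gene *Extl1*, listed at 0.1 in each KSFM-Ca2+ library with a normalized coverage of 0.847, 1.497 and 0.848 in DKSFM (limma adjusted p = 6.79e-05). *Extl1* passed the filter only through the DKSFM libraries, so that the direction was fixed by the filter.

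Of 16 genes that modify the chain, 8 were tested and all 8 passed, 5 as higher and 3 as lower, in data where most tested genes passed. *Ndst1*, an N-deacetylase and N-sulfotransferase that carries out the first modification, was at 187, 182 and 172 in KSFM-Ca2+ and at 235, 241 and 249.9 in DKSFM (log2 fold change 0.42, limma adjusted p = 1.52e-05). *Ndst2* was at 5.18, 4.76 and 4.84 against 6.77, 6.99 and 7.32 (log2 fold change 0.50, limma adjusted p = 3.61e-04). Both were higher in every DKSFM library, by less than 2-fold. The related *Ndst3*, which was not tested, went the other way at a low level. It was at 0.534, 0.496 and 0.354 in KSFM-Ca2+ and listed at 0 in every DKSFM library. *Ndst4* was listed at 0 in every library of both lines. The 6-O-sulfotransferase *Hs6st1* was called lower, at 60.6, 60.7 and 54.1 against 25.8, 26.8 and 28.1 (2.17-fold, limma adjusted p = 4.72e-07). The 3-O-sulfotransferase *Hs3st6* was called higher, at 5.95, 6.65 and 7.44 against 15.0, 18.8 and 16.5 (2.51-fold, limma adjusted p = 7.53e-06). Within 1 list the 2 called enzymes therefore went in opposite directions.

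After secretion, sulfatases take 6-O-sulfate groups off the chain at the cell surface. *Sulf2*, 1 of 2 tested genes among 4 that edit chains outside the cell, was at 483, 454 and 454 in KSFM-Ca2+ and at 1391, 1334 and 1394 in DKSFM. It rose 2.96-fold (log2 fold change 1.57, 95% interval 1.49 to 1.65, limma adjusted p = 5.32e-09). On the scale per length *Sulf2* stood above *Sdc1* in every DKSFM library and below it in every KSFM-Ca2+ library. The other tested gene passed as lower and was not called.

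Chains are broken down in lysosomes by a series of enzymes, 8 of which were listed and tested. Of these, 2 passed as higher and 4 as lower, and all but 2 of those that passed were called. *Gusb*, beta-glucuronidase, was at 41.9, 41.0 and 45.7 in the KSFM-Ca2+ libraries and listed at 0.1, 0.1 and 0.2 in the DKSFM libraries (limma adjusted p = 8.11e-09). The DKSFM values lie 1 or 2 steps above 0, so no fold is given. *Sgsh*, a sulfamidase, was 2.45-fold lower, at 10.1, 10.2 and 9.68 against 3.92, 4.19 and 4.14 (limma adjusted p = 7.71e-07). *Ids*, iduronate 2-sulfatase, was 2.16-fold higher, at 15.2, 15.5 and 14.5 against 31.2, 33.8 and 32.8 (limma adjusted p = 2.49e-07). *Arsg*, a sulfatase of 3-O-sulfated glucosamine, was listed at 0.2, 0.1 and 0.1 in KSFM-Ca2+ and reached 2.65, 2.99 and 2.33 in DKSFM (limma adjusted p = 7.37e-07). *Arsg* passed the filter only through the DKSFM libraries and *Gusb* only through the KSFM-Ca2+ libraries, so that both had to differ. The other called enzymes, *Sgsh* and *Ids*, went in opposite directions.

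Chondroitin sulfate is the other chain that some of these core proteins carry. *Csgalnact1*, which starts it, was not tested because only 1 library reached 0.5. The related *Csgalnact2* was at 29.9, 28.9 and 28.1 in KSFM-Ca2+ and 24.8, 27.5 and 23.3 in DKSFM and did not pass (limma adjusted p = 0.02). *Chsy1*, a chondroitin synthase, was at 11.5, 11.3 and 11.2 in KSFM-Ca2+ and 9.95, 8.48 and 10.1 in DKSFM and did not pass (limma adjusted p = 0.0154). Of 16 genes 12 were tested, 5 passed as higher and 4 as lower, and 3 were called higher and 2 lower. *Chst15*, which adds a second sulfate to chondroitin sulfate, was at 0.305, 0.397 and 0.472 in KSFM-Ca2+ and at 15.6, 17.1 and 17.8 in DKSFM (log2 fold change 5.12, limma adjusted p = 1.97e-08). *Chst11*, a 4-O-sulfotransferase, was low at 0.305, 0.198 and 0.118 against 1.06, 0.898 and 1.17 (limma adjusted p = 2.76e-04). *Chst15* and *Chst11* passed the filter only through the DKSFM libraries and had to differ. *Chst12*, also called higher, was at 18.0, 16.9 and 20.2 against 37.3, 36.3 and 39.2 (2.05-fold, limma adjusted p = 2.42e-06). *Chst14*, the dermatan 4-O-sulfotransferase, was 2.31-fold lower, at 10.1, 9.32 and 10.04 against 4.97, 4.29 and 3.50 (limma adjusted p = 3.34e-05). *Chst7*, a 6-O-sulfotransferase, was low and lower in DKSFM, at 1.14, 0.992 and 1.06 against 0.529, 0.499 and 0.212 (limma adjusted p = 0.00446). In DKSFM only replicate 1 reached the filter's minimum of 0.5. *Chst7* thus passed the filter mainly through the KSFM-Ca2+ libraries, where it was high.

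All 8 genes that supply sugar and sulfate donors were tested, 4 passed as higher and 3 as lower, and 1 was called. This was *Papss2*, which makes the sulfate donor PAPS, listed at 0.1 in each KSFM-Ca2+ library and with a normalized coverage of 10.6, 10.4 and 12.7 in DKSFM (limma adjusted p = 1.53e-08). The gene was thus at the smallest step in 1 line, and no fold is given. It passed the filter only through the DKSFM libraries, so that it had to differ. The related *Papss1* was far more abundant, at 129, 125 and 123 in KSFM-Ca2+ and 233, 229 and 240 in DKSFM. It passed as higher and was not called (1.86-fold, limma adjusted p = 5.76e-08).

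Of 24 other proteoglycan core proteins, 12 were at 0 in every library and 3 were tested. *Tgfbr3*, betaglycan, a coreceptor of TGF-beta, was at 14.6, 14.2 and 12.6 in KSFM-Ca2+ and at 5.29, 4.99 and 6.26 in DKSFM, 2.51-fold lower (limma adjusted p = 5.18e-06). *Podn*, podocan, a small leucine-rich proteoglycan, was at 1.22, 0.992 and 0.827 against 4.23, 4.39 and 3.61, 4.03-fold higher (limma adjusted p = 9.68e-06). The third tested gene, *Col18a1*, for the basement membrane proteoglycan collagen XVIII, was far more abundant, at 641, 633 and 598 against 369.7, 357 and 376. It passed as lower and was not called (log2 fold change -0.76, limma adjusted p = 2.42e-07), so that 2 of the 3 were lower in DKSFM and 1 was higher.

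Core proteins are shed by proteases and lipases. All 8 tested genes of the 10 in this list passed as higher in DKSFM, where 35.3% of all tested genes did, and 3 were called. Of the 8, *Timp3*, *Notum* and *Gpld1* passed the filter only through the DKSFM libraries and had to be higher, and of the 2 genes not tested, *Mmp9* was lower, at 0.131 ± 0.0621 in KSFM-Ca2+ (SD, n = 3) and listed at 0 in DKSFM, and *Mmp7* was listed at 0 in KSFM-Ca2+ and at 0.318, 0.299 and 0.212 normalized coverage in DKSFM. The median log2 fold change of the list was 0.86, and 0.66 without those 3 genes. *Mmp2*, a gelatinase, was at 2.13, 2.48 and 2.72 in KSFM-Ca2+ and at 13.4, 16.5 and 16.0 in DKSFM, 6.26-fold higher (limma adjusted p = 2.16e-07). *Timp3*, an inhibitor of shedding proteases, was listed at 0 in KSFM-Ca2+ and had 1.80, 1.996 and 2.12 in DKSFM (limma adjusted p = 5.59e-07). *Notum*, a secreted hydrolase that acts on Wnt proteins and binds glypicans, was also listed at 0 in KSFM-Ca2+ and had 0.953, 1.70 and 1.27 in DKSFM (limma adjusted p = 5.91e-06). The list thus holds an inhibitor beside the enzymes.

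Of 8 partners of the syndecan cytoplasmic tail, all tested, 4 passed as higher and 3 as lower. *Actn1*, alpha-actinin-1, which links syndecan-4 to actin, was at 729, 752 and 783 in KSFM-Ca2+ and at 321, 282 and 318 in DKSFM, 2.46-fold lower (limma adjusted p = 1.27e-07). *Sdcbp2*, a PDZ protein related to syntenin, was called higher at a low level, 0.762, 0.397 and 0.236 against 1.16, 1.198 and 1.17 (limma adjusted p = 0.0068). In KSFM-Ca2+ only replicate 1 reached the filter's minimum of 0.5. *Sdcbp2* thus passed the filter mainly through the DKSFM libraries, where it was high. Among 7 partners of agrin and perlecan 4 were tested, 2 passed as higher and 2 as lower, and 1 was called. This was *Lrp4*, an agrin receptor, listed at 0 in KSFM-Ca2+ and at 2.75, 2.99 and 3.29 normalized coverage in DKSFM (limma adjusted p = 1.66e-07). *Lrp4* passed the filter only through the DKSFM libraries and had to differ.

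Of 15 growth factors that bind heparin or heparan sulfate, 9 were tested, 5 passed as higher and 3 as lower, and 3 were called in each direction. *Ptn*, pleiotrophin, was listed at 0 in all KSFM-Ca2+ libraries and had 14.7, 14.6 and 14.6 in DKSFM (limma adjusted p = 3.16e-09). *Fgf1* was at 0.152, 0 and 0 in KSFM-Ca2+ and at 1.38, 1.198 and 1.06 in DKSFM (limma adjusted p = 9.73e-05). Both passed the filter only through the DKSFM libraries and had to differ. The third called higher, *Bmp4*, was at 0.769 ± 0.0734 against 2.495 ± 0.237 (SD, n = 3, limma adjusted p = 1.78e-05). The 3 called lower were *Hbegf*, *Areg* and *Vegfa*. *Hbegf*, heparin-binding EGF, was at 45.7, 46.3 and 54.0 in KSFM-Ca2+ and 7.94, 7.48 and 9.12 in DKSFM, 5.95-fold lower (limma adjusted p = 6.41e-08). *Areg*, amphiregulin, was at 13.8, 16.8 and 17.6 against 1.91, 1.80 and 1.48, 9.29-fold lower (limma adjusted p = 1.25e-07). *Vegfa*, vascular endothelial growth factor A, went from 255.9 ± 22.5 to 94.9 ± 8.46 (SD, n = 3, limma adjusted p = 6.70e-07).

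**Figure D4:**
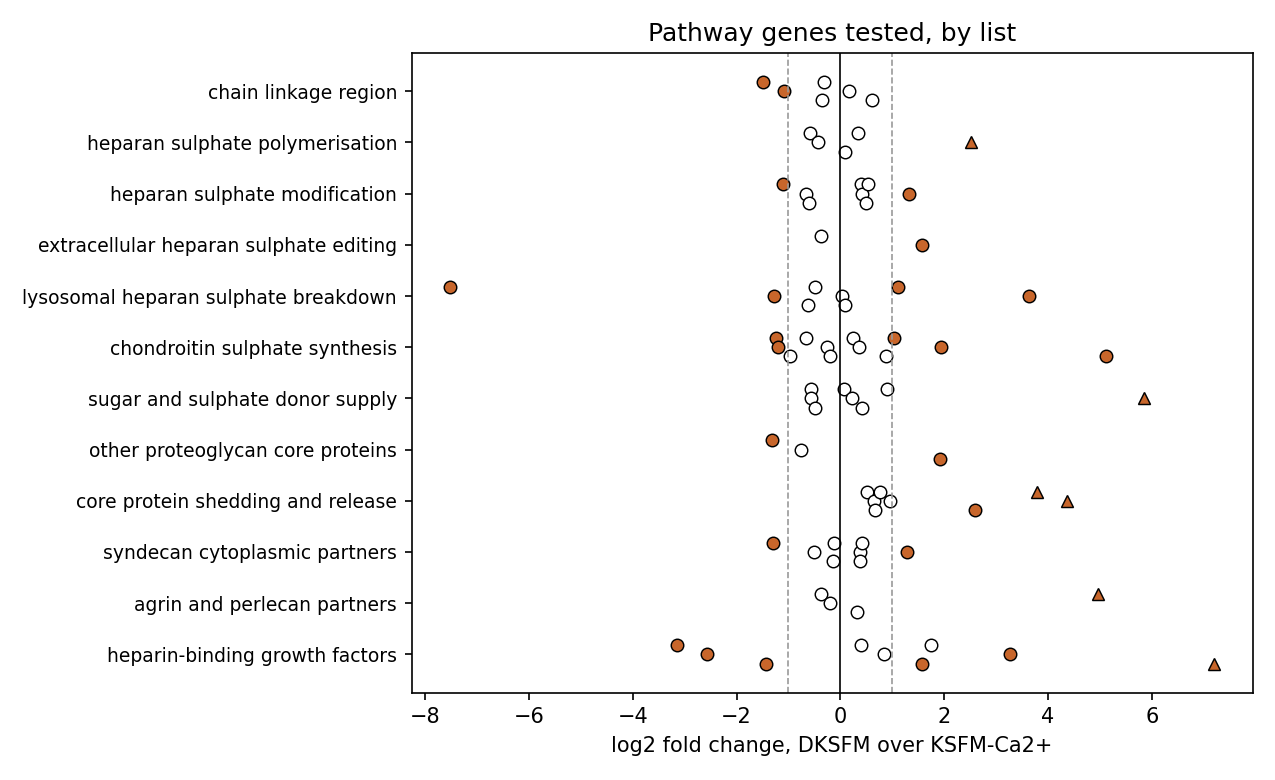
The log2 fold change of DKSFM over KSFM-Ca2+ (x axis, limma on log2 of normalized coverage + 0.1) for each tested gene of the 12 pathway lists (y axis), filled where called; triangles are genes at or under 0.1 in every library of 1 line, whose position depends on the pseudocount, and dashed lines mark 2-fold. Every tested gene of the shedding list lies right of 0, and every other list has genes on both sides.

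*Gpc1* and *Gpc4* were also called higher without each library in turn, with a minimum in every library, which *Gpc3* and *Gpc6* do not meet, and in the 4 libraries marked as combined, where KSFM-Ca2+ has 1 library that is assumed to vary like those of DKSFM. What marking as combined means is not given in the sources used here.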

How the data were processed

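Total RNA of the 2 lines had been made into directional poly(A) libraries and read once over 85 bases. The authors aligned the reads with STAR to mm10 with RefSeq genes and used Salmon and DESeq2. The deposited signal gives for each of 24982 genes its mean coverage by reads, rounded to 1 decimal. How coverage was computed is not given in the sources used here. Coverage is not a count, so count models and counting intervals were not used, and low values are limited by the rounding to 0.1.

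The members and the pathway and marker lists were chosen with earlier results of these data known. Libraries were scaled by trimmed means of M values without weights, trimming 30% by M and 5% by A, with a geometric mean of 1 for the scale factors. Genes that reached a normalized coverage of 0.5 in 3 or more libraries (2 or more where a library was left out) were tested with limma 3.58.1 in R 4.3.3, with an intensity trend and no covariate, on log2(normalized coverage + 0.1), with Benjamini-Hochberg adjustment over all 12409 genes. The procedure was tested on simulated data. Genes named are all members, of each pathway list up to 4 called genes with the largest log2 fold change and a mean of 1 or more in the line where they were higher, the first enzymes of each chain (*Xylt1*, *Xylt2*, *Ext1*, *Ext2*, *Ndst1*, *Ndst2*, *Csgalnact1*, *Chsy1*), and the most abundant and the near-absent marker genes. *Col18a1*, *Pdgfra*, *Gpld1*, *Mmp7*, *Mmp9*, *Vegfa*, *Bmp4*, *Gpc2*, *Gpc5*, *Acta2*, *Chst12*, *Csgalnact2*, *Papss1*, *Sulf1*, *Ndst3*, *Ndst4* and the keratinocyte markers other than *Krt14* are named after their values were seen. The result of 1 marker list is not reported here. Positions and promoters came from RefSeq (GRCm38.p6), with 24417 symbols matched directly and 479 through synonyms, and transcript lengths from GENCODE M21. Windows are the 20 Mb bins that hold a gene's start. Tables and plots were made with Python 3.11.15, pandas 2.3.3 and matplotlib 3.10.9. Alternatives were other scalings, filters, pseudocounts, variance models and thresholds, a replicate block, each library left out, and only the libraries marked as combined.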

Additional observations from a re-analysis of the deposited data

How the results depend on the processing

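For the 8 members that reached the filter's minimum in both lines, 134 of 136 refitted log2 fold changes kept their side of the p threshold, the 2 exceptions being those of *Sdc3* given with that gene. The count of members called, 4, became 2 with a minimum in every library, which *Gpc3* and *Gpc6* do not meet and where they give no value, and 9 with no fold minimum. The count of genes called, 2945, became 9004 with no fold minimum. The share of called genes that were higher in DKSFM, 55.3%, became 49.6% with quantile normalization. The count of pathway genes called, 30, became 17 with a minimum in every library, where 66 genes were tested, and 71 with no fold minimum. Of 79 family sums and shares that a scaling or a left-out library can move, 74 stayed within 1 SD. With quantile normalization the KSFM-Ca2+ shares became 60.4% for *Gpc1* of glypicans, 82.0% for *Agrn* of basement membrane proteoglycans and 1.64% for glypicans of syndecans and glypicans, and the cause was not tested. In the libraries marked as combined, where KSFM-Ca2+ has 1 library, the log2 ratio of the basement membrane sum became -0.08 from -0.14 and the glypican share in KSFM-Ca2+ 1.59%.

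Same-numbered libraries of the lines did not deviate together (correlations across genes of -0.006 to 0.024), so no pairing by number was seen. The labels do not say whether the numbers stand for pairs. With a replicate block 4 members, 31 pathway genes and 2952 genes were called. The rounding to 0.1 limits what can be said of *Gpc3*, *Gpc6* and other genes near 0, and 3 libraries a line limit the precision of each difference.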

Other observations

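*Gusb*, which was at or near the smallest step in DKSFM, lies on chromosome 5 (GRCm38.p6, chr5:129989011-130003049) between *Vkorc1l1* and *Asl*, the nearest tested genes on either side. They were chosen after the values of *Gusb* were seen. *Vkorc1l1* was listed at 119.9, 90.9 and 74.0 in KSFM-Ca2+ and at 81.5, 91.1 and 88.2 in DKSFM. *Asl* was listed at 41.1, 30.4 and 28.3 against 21.4, 26.4 and 23.7. Normalized, *Asl* fell by 21.9%, from 31.6 ± 1.65 to 24.7 ± 1.88 (SD, n = 3, limma adjusted p = 0.0012), with no overlap. Both neighbours were present in every library of both lines, while *Gusb* was listed at 54.9, 41.3 and 38.7 against 0.1, 0.1 and 0.2.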
